A study of Mus musculus with 2 samples.

Results

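Mbp encodes myelin basic protein, and its transcripts were followed here in spinal cord RNA from mice with and without a targeted Secisbp2l gene. The members were taken by name: the 1 gene named Mbp (ENSMUSG00000041607) of 51826 genes listed, and the 16 transcripts listed under that gene ID of 128622. The data comprised 1 library from wild-type C57BL/6 mice (WT) and 1 from C57BL/6 mice with floxed Secisbp2l (exon 3) and Olig1-Cre (cKO), both at postnatal day 7. The Cre is named for Olig1, a transcription factor gene of the oligodendrocyte lineage, so deletion is directed to that lineage, while the RNA came from all cells of the cord. The labels give neither the number of animals in a library nor any Cre or floxed allele in the WT group. A single library per group allows neither a replicate check nor a test. Intervals below are 95% intervals of counting error only.

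Myelin basic protein is a positively charged protein of oligodendrocytes and Schwann cells that binds the inner faces of the membrane and holds the layers of the myelin sheath together. Its mRNA is carried in granules to the tips of oligodendrocyte processes and translated there. The gene has a pair of promoters far apart: the downstream promoter gives the classic forms that build myelin, and the upstream promoter gives the Golli forms, which reuse some classic exons and are known from oligodendrocyte precursors, neurons and T cells. Classic forms differ by skipped exons, and those that keep exon 2 are known to be more prominent early in development.

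The WT library summed to 42875143 estimated counts and the cKO library to 55179026, with about 2 counts to a sequenced fragment. In CPM, the count scaled to library size, Secisbp2l itself was at 588 (WT) and 466 (cKO), and these whole-gene values do not isolate the floxed exon. The libraries also differed in sex-linked genes: Xist was counted 35182 times in WT but 13 times in cKO, while 4 Y-linked genes (Uty, Kdm5d, Eif2s3y, Ddx3y) were at 0 in WT and reached 1081 to 4280 counts in cKO. Genotype and sex-linked expression cannot be told apart in any comparison below. All 12 neuron markers, 8 astrocyte markers and 8 microglia markers examined averaged at least 1 CPM, the level above which a gene is called measured here.

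Mbp lies on the plus strand of chromosome 18, at 82475146 to 82585637 in GRCm38, per the deposited positions. Of the 16 transcripts, 4 start at the upstream end and were classed as Golli, 11 start 79.3 kb further downstream and were classed as classic, and Mbp-214, a noncoding transcript, starts inside the classic part. The classic part has 7 exons in its longest coding form. Exons 2, 5 and 6, of 78, 33 and 123 nt, are each missing from some forms. Exons 1, 3, 4 and 7 were taken to be in all 11. For the 5 transcripts whose exon content was read from length, as described below, this was assumed. The main Golli transcript, Mbp-201, joins 3 upstream exons to an extended classic exon 1 and to exons 3, 4 and 7 and encodes 250 residues. Mbp-205 has the same 3 upstream exons and ends in a 4384 nt exon that covers classic exon 1 and runs 3953 nt into the intron after it. It encodes 195 residues. The remaining Golli transcripts are Mbp-208, which ends after an exon of its own of 1362 nt, and Mbp-213, annotated as a target of nonsense-mediated decay.

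**Figure D1:**
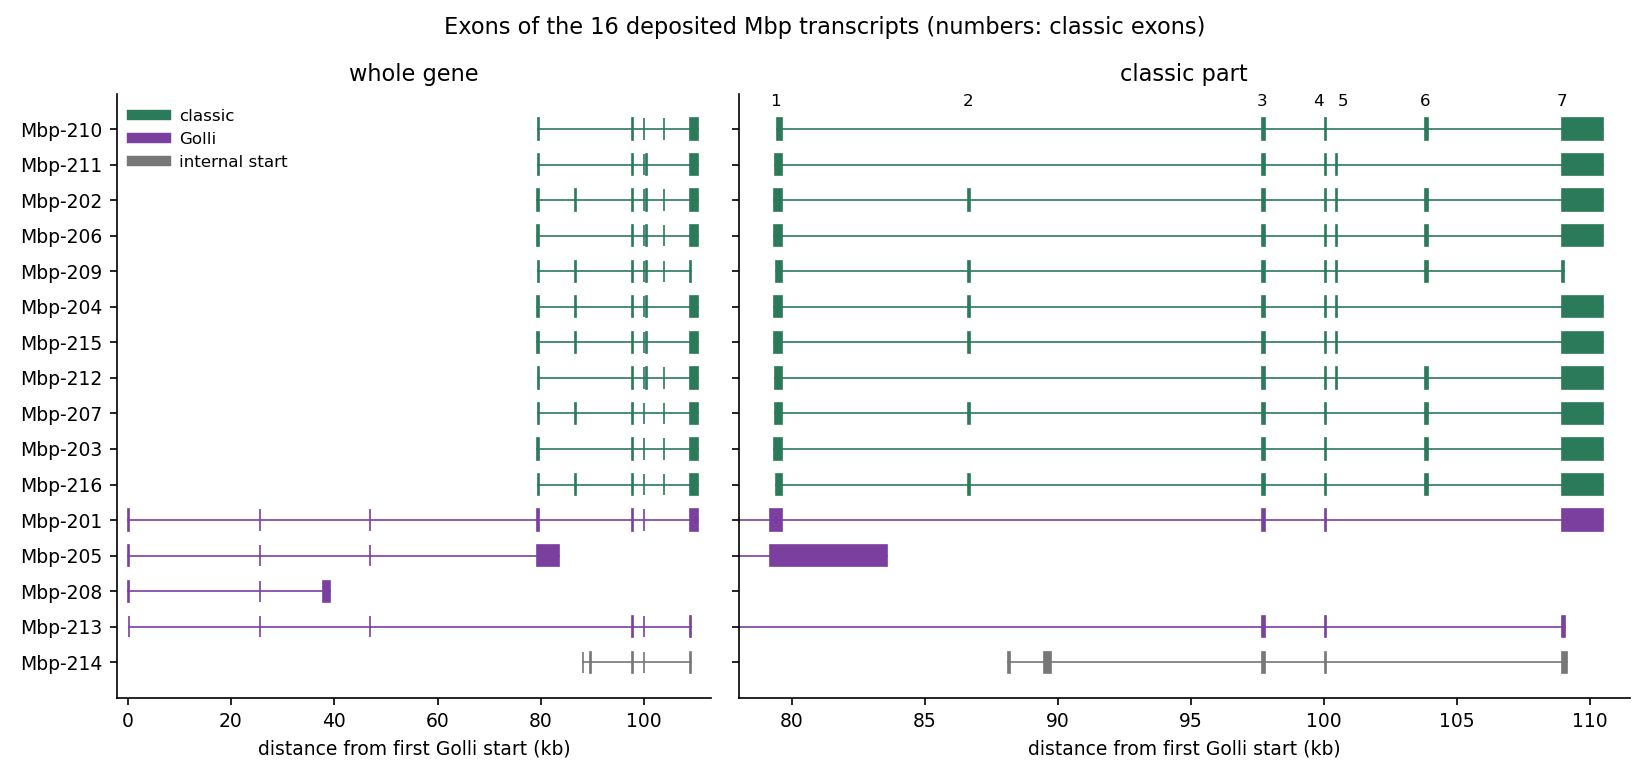
Exons (boxes) and introns (lines) of the 16 deposited Mbp transcripts, drawn to scale against distance in kb from the first Golli start, for the whole gene (left) and the classic part (right, with classic exon numbers 1 to 7 on top). The 4 Golli transcripts begin at the left edge, and the 11 classic ones begin 79.3 kb further on.

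The identity of several classic transcripts had to be read from the deposited values. For Mbp-202, Mbp-203, Mbp-204, Mbp-206, Mbp-207 and Mbp-210 the deposited start or end differs from that in the GENCODE M21 annotation. Count and FPKM together give a transcript's length, which was compared with combinations in which only exons 2, 5 and 6 could be missing. For these 6 transcripts the length matched 1 such combination within 3.89 nt, while the next best of them missed by 10.7 nt or more. For 5 of them, all but Mbp-210, that combination is not the one that M21 lists under the same ID. Mbp-202, for example, had a length of 2187 nt, which fits exons 1 to 7 with both ends as deposited (2186 nt), while M21 lists it at 531 nt. Exon 4 (36 nt) and exon 5 (33 nt) are close in length, and skipping of exon 4 in place of exon 5 was not tried. A loss of exon 5 read from length therefore rests on the assumption that exon 4 is kept. Exon contents below follow the deposited lengths for these 6 transcripts and M21 for the others.

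The Mbp gene was lower in the cKO library. It had 226400 counts in WT and 157403 in cKO, which are 5277 CPM and 2854 CPM. On the authors' per-length scale it stood at 6040 TPM and 3329 TPM. The log2 ratio of cKO over WT on CPM was -0.89 (exact interval -0.90 to -0.87), or 1.85-fold lower. In this bulk tissue, fewer oligodendrocytes and less Mbp mRNA in each of them cannot be told apart.

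Mbp was among the most abundant mRNAs of the cord in both libraries. By TPM it ranked 14th of 51826 genes in WT and 22nd in cKO, and by counts 4th and 17th. It took 0.528% of all counts in WT and 0.285% in cKO. The 10 genes of highest mean TPM were mitochondrially encoded genes such as mt-Co1, a subunit of cytochrome oxidase, and predicted genes such as Gm10925, and their log2 ratios lay between -0.20 and 0.06. The difference of cKO minus WT was -2423 CPM.

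A rule of size was used in place of a test: a difference counted where it was 1.5-fold or more and its interval did not take in equality. On deposited TPM only the 1.5-fold part was used, without an interval. By the rule on CPM, 3.39% of the 15917 measured genes were lower and 2.46% were higher. Their median log2 ratio was 0.01 with quartiles of -0.14 and 0.15. A ratio lower than that of Mbp was found in 235 of them, or 1.48%. Among the 64 genes of at least 1000 mean CPM, those with a lower ratio included Mobp (-1.24), which encodes another small basic protein of myelin. Apoe, the lipid carrier of glia, came next above Mbp at -0.77.

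**Figure D2:**
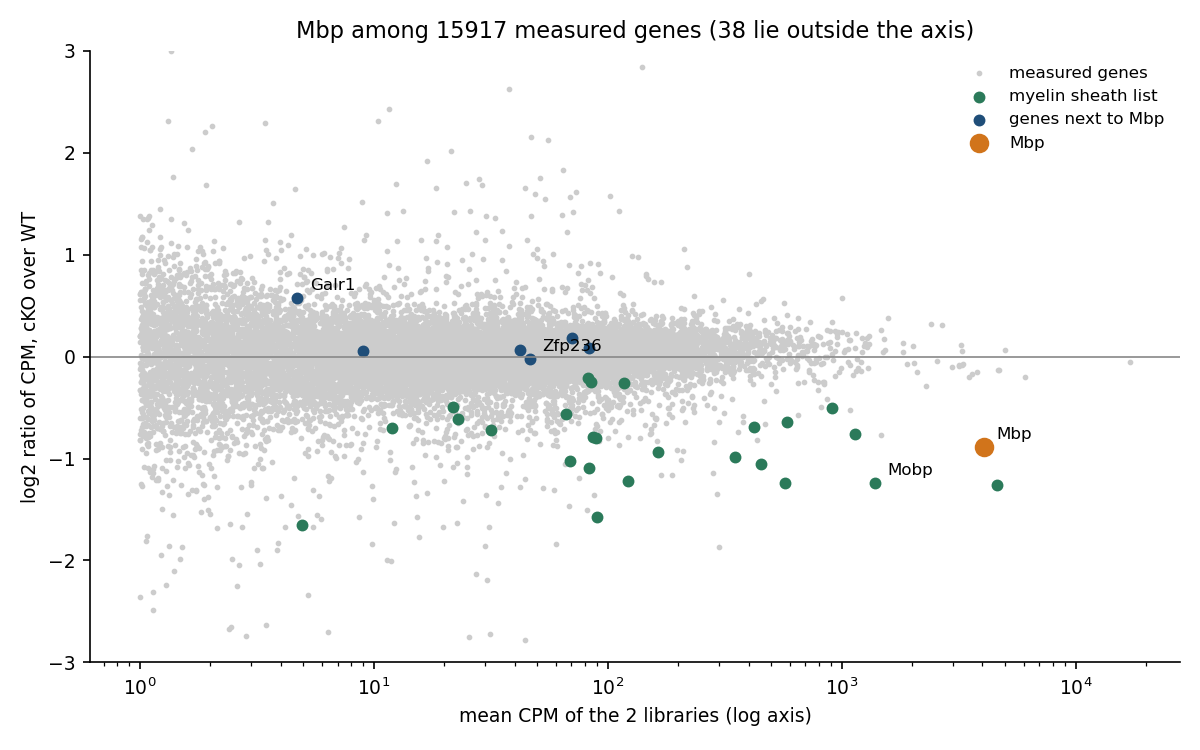
Log2 ratio of cKO over WT (vertical) against the mean CPM of the 2 libraries (horizontal, log axis) for 15917 measured genes in grey, with Mbp in orange, the 25 other myelin sheath genes in green and the 6 measured genes nearest to Mbp on the chromosome in blue. Mbp sits at -0.89 near the right edge, Mobp lies lower at -1.24, the neighbours lie near or above 0, and 38 genes beyond the axis limits of 3 are not drawn.

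The classic class held nearly all of the gene's signal. Its 11 transcripts summed to 221099 counts in WT and 153024 in cKO, which are 97.7% and 97.2% of the Mbp counts. In TPM the class stood at 5947 in WT and 3272 in cKO. The log2 ratio of CPM was -0.89 (interval -0.91 to -0.88). All 11 classic transcripts had a ratio below 0, against 47.98% of all transcripts with a mean of 1 CPM or more. By the rule of size, 8 of the 11 were lower.

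Transcripts gave much more scattered ratios than genes, so a call on a transcript carries less weight. Of the 32757 transcripts of the whole series with a mean of 1 CPM or more, 12.9% were lower by the rule and 13.1% higher. Of the 16 Mbp transcripts 13 were measured, of which 9 were lower and 0 were higher. All 13 had a ratio below 0, against 47.98% of all measured transcripts. Their median was -0.95, against 0.02 for all measured transcripts. The 13 belong to 1 gene and share reads, so their common sign does not amount to 13 separate observations. Reads from shared exons were divided between these transcripts by the authors' estimate, and no interval here covers the error of that division.

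Mbp-210 and Mbp-211 were the leading transcripts in both libraries. Mbp-210, which skips exons 2 and 5 and encodes 158 residues, stood at 2583 TPM in WT and 1374 TPM in cKO (log2 ratio of CPM -0.95, interval -0.97 to -0.93). Mbp-211, which skips exons 2 and 6 and encodes 128 residues, stood at 2335 TPM and 1289 TPM (-0.89, interval -0.91 to -0.87). The intervals of both ratios lie close together without meeting.

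Mbp-202 followed in both libraries. It keeps all 7 exons, encodes 195 residues and stood at 438 TPM in WT and 259 TPM in cKO, with a log2 ratio of -0.79 (interval -0.84 to -0.75). Mbp-206 came next, skips exon 2 only, encodes 169 residues and stood at 212 TPM and 149 TPM (-0.55, interval -0.61 to -0.48). Mbp-206 therefore missed the 1.5-fold limit. Its share of the Mbp counts was 3.78% in WT, with a Wilson interval of 3.67% to 3.90%, against 4.79% (4.65% to 4.95%) in cKO.

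Mbp-204 and Mbp-215 both keep exons 2 and 5, skip exon 6 and encode 154 residues. Mbp-204 stood at 99.4 TPM in WT and 51.6 TPM in cKO, with a log2 ratio of -0.98. Mbp-215 stood at 65.8 TPM and 45.4 TPM, with a log2 ratio of -0.57, short of the limit. The other classic transcripts each held less than 1% of the Mbp counts. Their log2 ratios ran from -3.52 for Mbp-216, on 267 counts in WT and 30 in cKO (-2.27 from deposited TPM, pseudocount 1), to -0.27 for Mbp-207, on 1091 and 1159 counts.

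The order of the levels was the same in both libraries for the first 6 transcripts: Mbp-210, Mbp-211, Mbp-202, Mbp-206, Mbp-209 and Mbp-204. Each of these was separated from the next by more than its counting interval, apart from Mbp-209 and Mbp-204, whose intervals overlapped in both libraries. The Golli transcript Mbp-201 took place 7 in WT, where its interval overlapped that of Mbp-215, and place 8 in cKO behind Mbp-215. Mbp-205 took place 11 in WT and place 10 in cKO, where its interval overlapped those of its neighbours Mbp-207 and Mbp-212.

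**Figure D3:**
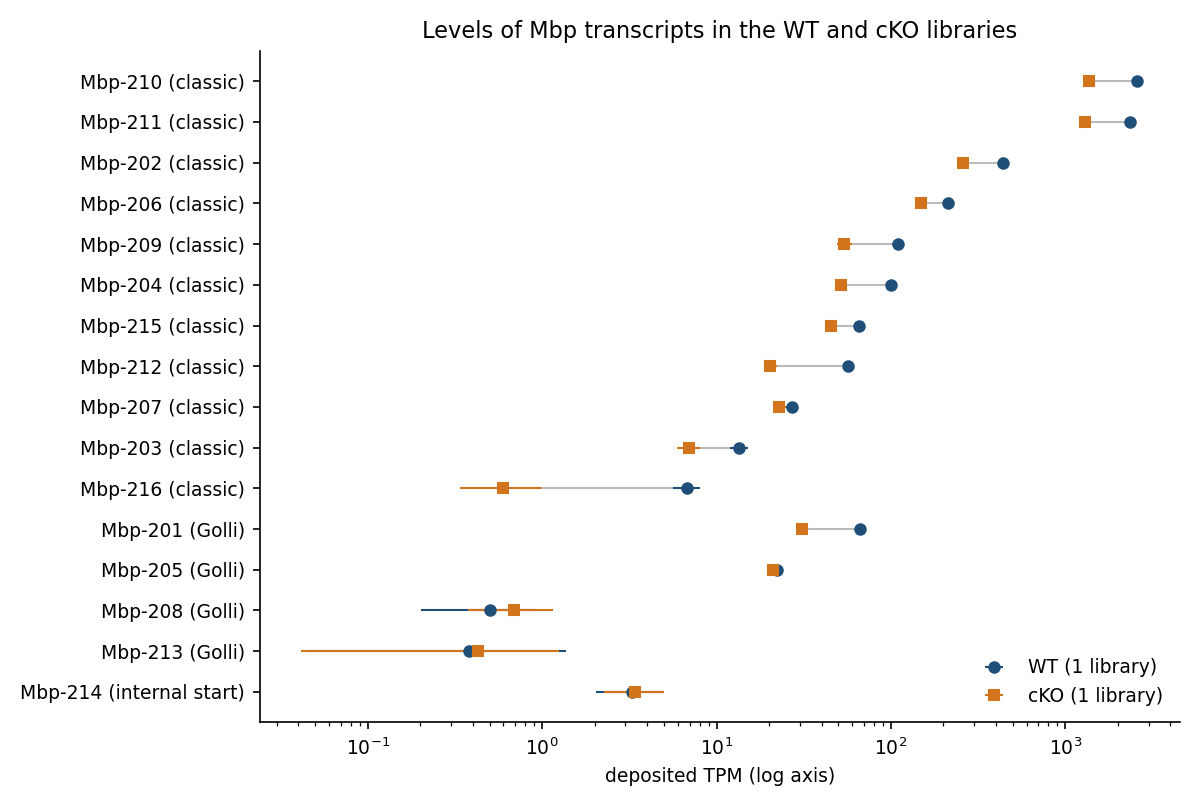
Deposited TPM (log axis) of each of the 16 Mbp transcripts in the WT library (circles) and the cKO library (squares), with 95% Poisson intervals of counting error as bars. The leading pair lie above 1000 TPM in both libraries, and the symbols of Mbp-205 lie almost on top of each other at 22.3 and 21.2 TPM.

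Transcripts with the same internal exons could have different ratios, and the cause was not tested. Mbp-206 and Mbp-212 encode the same 169 residues, with starts 46 nt and ends 6 nt apart, yet their log2 ratios were -0.55 and -1.51. Mbp-207 and Mbp-216 encode the same 184 residues, with starts 38 nt apart and 1 shared end, and had ratios of -0.27 and -3.52. For Mbp-204 and Mbp-215, 7 nt apart at the start, the ratios were -0.98 and -0.57. The classic transcripts were therefore also summed by the protein they encode.

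Summed by protein, the ratios were closer together. The 158-residue form (Mbp-203 and Mbp-210) stood at 2596 TPM in WT and 1381 TPM in cKO, with a log2 ratio of CPM of -0.95. The 128-residue form had 2335 TPM and 1289 TPM and a ratio of -0.89. The full 195-residue form (Mbp-202 and Mbp-209) stood at 548 TPM and 313 TPM (-0.81, interval -0.85 to -0.77). These 3 forms made up most of the classic level in both libraries.

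The less abundant forms had ratios from -0.80 to -0.55, and the interval of the 154-residue form overlapped that of the 195-residue form. The 154-residue form stood at 165 TPM in WT and 97.1 TPM in cKO (-0.80, interval -0.88 to -0.73), and the 169-residue form at 269 TPM and 169 TPM (-0.70, interval -0.76 to -0.64). The rarest, of 184 residues, had 33.7 TPM and 23.5 TPM, and its ratio of -0.55 (interval -0.72 to -0.39) was the only one of the 6 short of the 1.5-fold limit.

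**Figure D4:**
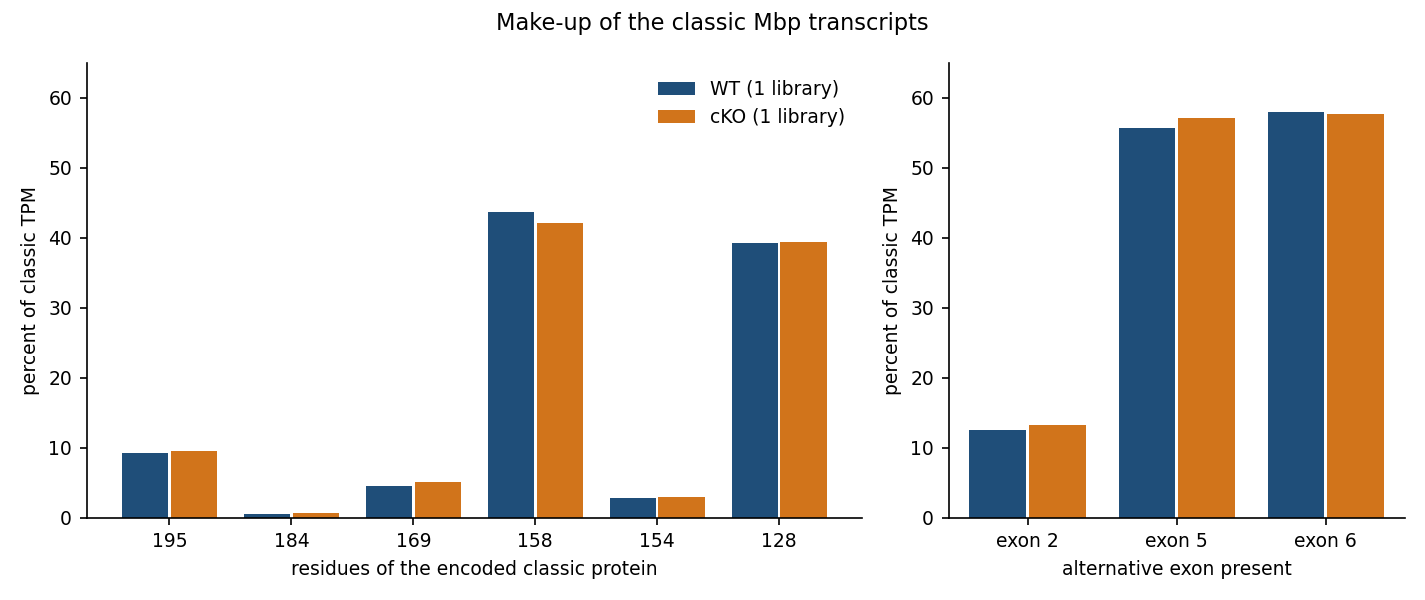
Percent of the summed TPM of classic Mbp transcripts by length of the encoded protein (left) and percent that keep each alternative exon (right), in the WT library (blue) and the cKO library (orange). The bars of the 2 libraries differ by at most 1.47 points in any pair.

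The make-up of the classic class was nearly the same in both libraries. Exon 2 was kept in 12.6% of the classic TPM in WT and 13.3% in cKO. Exon 5 was kept in 55.8% and 57.1%, and exon 6 in 58.0% and 57.6%. Transcripts with exon 2 summed to a log2 ratio of -0.79 (interval -0.83 to -0.76) and those without it to -0.91 (interval -0.92 to -0.89). The largest shift of any protein form was that of the 158-residue form, from 43.7% of the classic TPM in WT to 42.2% in cKO. Exon contents taken from M21 would give other levels for these shares, with exon 5 in 43.2% (WT) and 43.0% (cKO), the opposite order.

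The movement of transcript shares was set beside that of other genes. Between the libraries, 2.76 percentage points of share passed from some of its transcripts to others. The same measure was computed for 3313 genes with at least 1000 counts in each library and at least 2 transcripts of 10% or more, and its median was 8.27 points. Among the 61 such genes with at least 20000 counts in WT the median was 3.47 points, with 26 genes below Mbp.

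The Golli class was lower in the cKO library as well, but its main transcripts did not move together. The class summed to 5259 counts in WT and 4325 in cKO, or 89.9 TPM and 53.1 TPM. The log2 ratio was -0.64 on CPM (interval -0.73 to -0.56) and -0.76 on TPM. Classic transcripts exceeded Golli transcripts by 66.1 times in TPM in WT and by 61.6 times in cKO.

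Mbp-201, the Golli transcript that runs to the last classic exon, had 3189 counts in WT and 1844 in cKO. Its level was 66.8 TPM and 30.8 TPM, and its log2 ratio of CPM was -1.15 (interval -1.27 to -1.03), or 2.22-fold lower. Mbp-205, the Golli transcript that ends in the intron after classic exon 1, had 2049 and 2448 counts. Its level was 22.3 TPM and 21.2 TPM, with a log2 ratio of -0.11 (interval -0.23 to 0.02). The ratio of Mbp-205 is the only one of the 13 measured transcripts with an interval that takes in 0. That depends on taking 2 counts as 1 fragment. On counts as deposited, the interval of Mbp-205 was -0.19 to -0.02 and left out 0.

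The balance within the Golli class differed accordingly. Of the counts of Mbp-201 and Mbp-205 together, Mbp-201 held 60.9% (Wilson interval 59.0% to 62.7%) in WT against 43.0% (40.9% to 45.1%) in cKO. In TPM, Mbp-201 exceeded Mbp-205 3.0 times in WT and 1.45 times in cKO. Mbp-208 had 17 and 28 counts, and Mbp-213 had 4 and 5 counts, so no difference was detectable for either at this depth.

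The gene models limit what can be read from these values. No base of Mbp-201 is unique to it: 78.3% of its length lies in classic exons and the rest is shared with Mbp-205. Of the 4797 nt of Mbp-205, only 6.00% lie in classic exons and 3953 nt lie in a classic intron, so Mbp-205 and unspliced classic RNA cannot be told apart over most of its length. The share of Golli transcripts in the Mbp counts was 2.32% (Wilson interval 2.24% to 2.41%) in WT against 2.75% (2.64% to 2.86%) in cKO. In TPM the share was 1.49% and 1.60%. Without Mbp-205 the share of counts was 1.43% and 1.21%, the opposite order. Without Mbp-205 the log2 ratio of the class was -1.14.

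**Figure D5:**
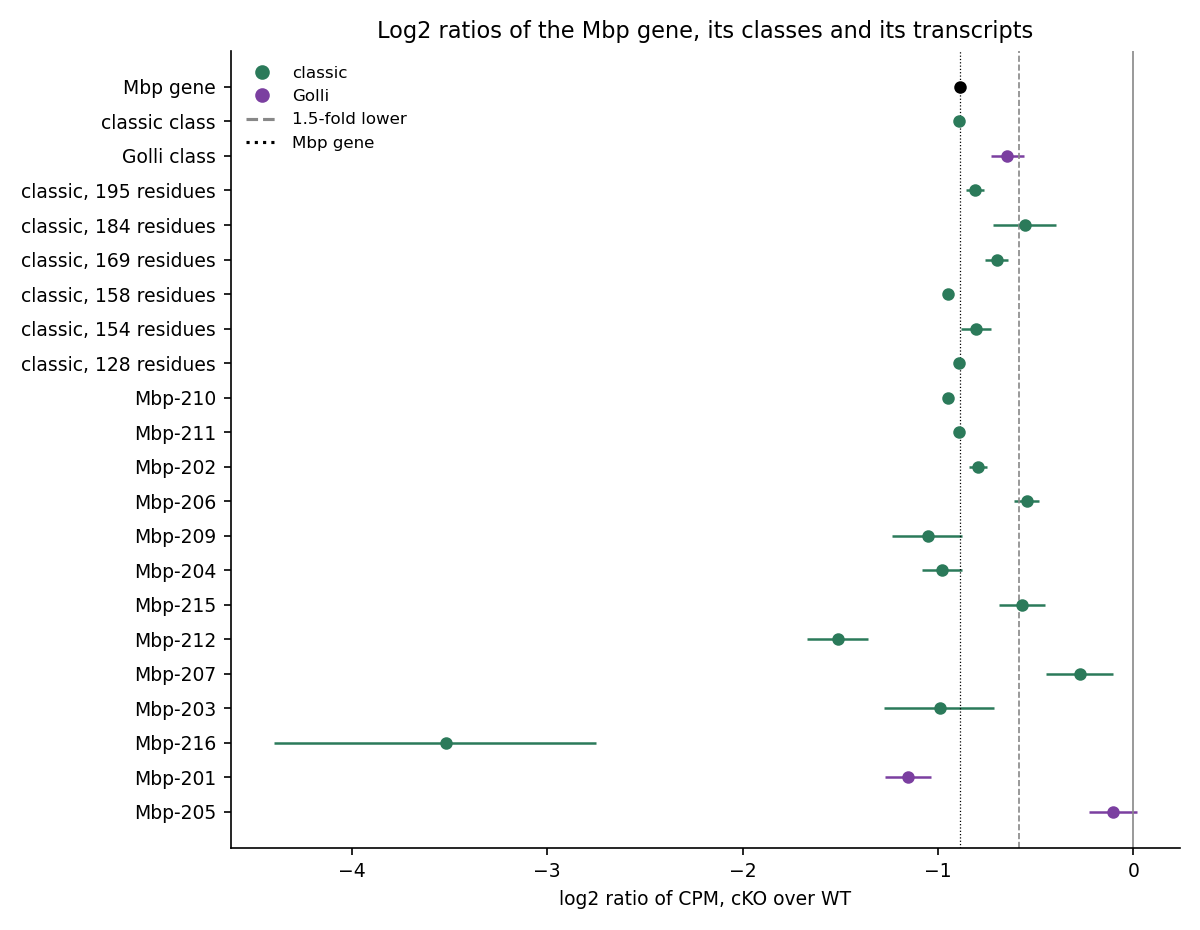
Log2 ratio of CPM, cKO over WT, with 95% exact intervals of counting error, for the Mbp gene (black), the classic (green) and Golli (purple) classes, the classic forms by protein length, and the 13 measured transcripts. Most points gather near the dotted line of the gene at -0.89, while Mbp-216 lies far to the left at -3.52 and Mbp-205 near 0 at -0.11.

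The genes around Mbp did not share its ratio. No gene has exons that overlap those of Mbp on either strand in M21. The pseudogene Rpl21-ps8, within the Mbp span on the opposite strand, had 3 counts in WT and 11 in cKO. Zfp236, a zinc finger gene on the opposite strand whose nearer end lies 7.96 kb downstream, stood at 46.9 (WT) and 46.2 CPM (cKO) (log2 ratio -0.02, interval -0.14 to 0.10). Galr1, a galanin receptor gene 68.4 kb upstream, stood at 3.8 CPM and 5.64 CPM (0.57, interval 0.17 to 0.97). The 4 remaining neighbours, Sall3, Gm17383, Gm10524 and Zfp516, lay 107 kb to 1489 kb away and had ratios between 0.06 and 0.18. By the rule of size, 0 of the 6 were lower and 0 higher, where 3.39% and 2.46% of all measured genes were. So few genes would be likely to give 0 calls at those shares.

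Other proteins of the myelin sheath were lower with Mbp. Of 25 genes on the list, 19 met the rule as lower, 0 as higher and all 25 had ratios under 0. Among all measured genes, 3.39% were lower, 2.46% higher and 47.7% below 0. The list's median was -0.79, beside 0.01 for all measured genes. Mobp stood at 1707 TPM in WT and 762 TPM in cKO. Fa2h, which hydroxylates the fatty acids of myelin lipids, and Ugt8a, which adds their galactose, had log2 ratios of -1.57 and -1.24, and Opalin, a late membrane protein, one of -1.66. Plekhb1 was at -1.22.

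Mbp lay in the middle of that list. Of the 25 genes, 11 had a lower ratio than Mbp. Cnp, an enzyme of the cytoplasmic channels of myelin, was at -0.75 and Mag, an adhesion molecule facing the axon, at -0.65, both nearer to 0. The level of Mbp relative to Mobp was thus 3.54 in WT and 4.37 in cKO, in TPM. Relative to Mag it was 6.59 and 5.57. Mbp made up 33.7% of the TPM of these 26 genes in WT and 34.9% in cKO.

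The genes with log2 ratios most like that of Mbp were sought among the 4836 other genes of at least 50 mean CPM. The measure was the absolute difference in log2 ratio over the 2 libraries, and the closest 8 were within 0.05. In order these were Tmem189 (-0.88), Gm15440 (-0.87), Vstm2a (-0.87), Mapre2 (-0.92), Akt2 (-0.85), Skp1a (-0.93), Mog (-0.93) and Bcas1 (-0.84). Mog is a surface protein of the outer myelin layer, Bcas1 a marker of newly formed oligodendrocytes, Mapre2 a protein of growing microtubule ends and Akt2 a kinase of insulin signalling.

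Transcription factors that act on Mbp were examined as a group of 22 genes. By the rule, 5 were lower and 0 were higher, and 18 had a ratio below 0, with a median of -0.25, where 3.39% of all measured genes were lower, 2.46% higher and 47.7% below 0. Olig1 was at 388 CPM in the WT library and 176 in the other (-1.14). Since the Cre is named for this gene, the Cre allele and the deletion cannot be told apart in its level. Nkx6-2, a homeobox factor of late oligodendrocytes, was at -0.82 and Zfp488, a zinc finger factor of the lineage, at -0.75. Nkx2-2 (-0.63) and Sox10 (-0.59), which drive differentiation and myelin genes, lay near the limit, and on the authors' TPM 3 of the 22 were lower. Thra, a thyroid hormone receptor gene, was at -0.02 and Purb, a single-strand binding protein, at 0.06.

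Factors that bind, carry, splice or translate Mbp mRNA had a median closer to equality. Of 27 genes, 0 were lower by the rule and 1 was higher, against 3.39% and 2.46% of all measured genes. These counts are near the shares of all genes. A ratio below 0 was found in 19 of the 27, against 47.7% of all measured genes, and the median was -0.11. The ratios ran from -0.56 for Tppp to 0.68 for Hnrnpf. Hnrnpa2b1, which binds the transport element of Mbp mRNA, was at 329 (WT) and 279 CPM (cKO), a log2 ratio of -0.24. Hnrnpa1, a splicing regulator, was at -0.13, Ddx5, an RNA helicase, at -0.05 and Mapt, the microtubule protein tau, at 0.27. The gene higher by the rule was Hnrnpf, a splicing factor, with 65.9 CPM and 106 CPM (0.68). On the authors' TPM, which stood at 126 and 137 for Hnrnpf, no member of the list was higher.

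Enzymes that modify myelin basic protein included 1 gene lower by the rule and 0 higher among 9 measured (3.39% and 2.46% of all measured genes). Their median was -0.03, but 0.03 when taken from deposited TPM (pseudocount 0.1), on the other side of 0. This was Padi2, which converts arginines of the protein to citrulline, at 76.7 (WT) and 43.6 CPM (cKO) (-0.81, interval -0.92 to -0.71). Padi1, Padi3 and Padi4 were below the level of measurement. Prmt1, an arginine methyltransferase, was at -0.24, the kinase gene Mapk3 at -0.12 and the protease gene Capn2 at 0.01. Genes of calcium entry and calmodulin, with which Golli proteins have been linked, had a median of 0.05, and 0 of 10 met the rule in either direction. At the shares of all measured genes, 3.39% lower and 2.46% higher, so few genes would be likely to give 0 calls. Calm3, Calm2 and Orai2 had ratios of 0.10, 0.05 and 0.21.

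Markers of the cells that can make Mbp or Golli transcripts were compared. Newly formed oligodendrocyte markers summed to 1001 TPM in WT and 696 TPM in cKO with a median log2 ratio of -0.70. The rule called 5 of 8 lower, against 3.39% of all measured genes: Neu4 (-1.09), Bcas1 (-0.84), Bmp4 (-0.78), Enpp6 (-0.76) and Gpr17 (-0.64). The list's other leading gene, Fyn, a kinase that releases Mbp mRNA from translational arrest, was at -0.02. Precursor markers summed to 724 and 596 TPM with a median of -0.16, and only Gpr17 of 8 was lower by the rule. Olig2, a transcription factor of the whole lineage, was at -0.53, short of the limit, and Lhfpl3 was at -0.27. Pdgfra and Cspg4, which define precursors and were named after their values were seen, were at -0.07 and -0.15. The part of these cells in the Mbp and Golli ratios was not tested.

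Schwann cells of the nerve roots also make classic Mbp. All 10 of their markers were measured, with summed levels of 1419 TPM in WT and 1531 TPM in cKO and a median ratio of 0.12. Pmp22, a membrane protein of peripheral myelin, stood at 358 and 403 TPM (0.13) and Prx, a scaffold of Schwann cells, at 35.9 and 48.7 TPM (0.40). Drp2 (-0.81) and Sox10 (-0.59), the latter shared with oligodendrocytes, were lower by the rule (2 of 10, against 3.39% of all measured genes), and on the authors' TPM neither was.

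Neuron markers summed to 6032 TPM in WT and 6860 TPM in cKO, with a median log2 ratio of 0.18. By the rule, 0 of the 12 neuron markers were lower and 0 higher, against 3.39% and 2.46% of all measured genes. The highest of them, Nefl, Tubb3, Stmn2 and Nefm, were at 0.13, 0.25, 0.12 and 0.26. Astrocyte markers (3824 and 3778 TPM, median -0.06, with Gfap at -0.07) and microglia markers (291 and 289 TPM, median -0.05, with Csf1r, the receptor that maintains microglia, at 0.09) had 0 of 8 members past the rule each. T cell markers were at or near 0: 8 of 10 were below 1 mean CPM, Cd3g had 0 counts in both libraries, Cd3e had 2 (WT) and 0 (cKO), and the pair measured, Lck and Zap70, had 154 and 80 counts in WT and 152 and 83 in cKO.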

How the data were processed

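Whole spinal cord RNA was measured in 2 libraries, WT and cKO. GRCm38.p6, Bowtie2 2.3.2 and CASAVA are named, without roles, in the submitters' processing notes. Which tool counted, on which annotation and strand, is not given in the sources used here. Per gene and per transcript, the authors deposited estimated counts, TPM and FPKM, per the file headers. The deposited counts are whole numbers but estimates: constant times FPKM times length gathered at even numbers (35.6% of 7435 low genes with 1 transcript in WT within 0.2 of an even number, 17.7% of an odd one), so 1 fragment was taken as 2 counts. No p-value was computed.

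Library sizes were scaled with TMM factors (edgeR 4.0.16, R 4.3.3; 1.0006 for WT, 0.9994 for cKO). Ratios are of CPM with no pseudocount. Exact (Clopper-Pearson) intervals of ratios, Wilson intervals of shares and Poisson intervals of levels were computed on fragments with scipy 1.17.1 under Python 3.11.15. PCR copies are not independent, so these intervals hold counting error and nothing else. Transcript lengths from count and FPKM fell within 6 nt of M21 for 83.3% of 623 transcripts of like length with unchanged ends. The ratio and rule were run on simulated counts with known folds and counting error alone. That run checked the calculation and not the calls in these libraries. Values were given for each transcript with at least 1% of the Mbp counts or in the Golli class, list members past the rule (up to 6) or of highest TPM (up to 4), chromosomal neighbours, the 10 genes of highest TPM and the 8 nearest ratios. Some results that this rule takes are left out of the text. Members and lists were chosen with earlier results of these data known. DESeq2 1.42.0 size factors, upper quartile factors, unscaled totals, deposited TPM and FPKM, other filters and other class rules were alternatives. No sequence is printed.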

Additional observations from a re-analysis of the deposited data

How the results depend on the processing

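No paired analysis was possible because each group has 1 library and no comparison comes from a test, and no library could be left out. Ratios and medians kept their sign except where named here. The median of the modifying enzymes was 0.0262 and 0.0260 on TPM with pseudocounts of 0.1 and 1, above 0. Mbp-213, on 4 and 5 counts, turned from -0.04 to 0.14 and 0.05 on those scales and 0.10 on FPKM, and Mbp-214 from 0.0004 to -0.0014 with unscaled totals. The Mbp gene ratio was -0.869 with upper quartile factors and -0.859 on deposited TPM with a pseudocount of 0.1 or 1, and the classic class -0.875, -0.862 and -0.862. The Golli class stood at -0.759 and -0.749 on TPM with those pseudocounts and at -1.14 without Mbp-205, an alternative chosen after seeing the data. The Golli share was 1.49% (WT) and 1.60% (cKO) of TPM, and 1.43% and 1.21% of counts without Mbp-205, which reverses the order of the libraries. Exon contents taken from M21, also chosen after seeing the data, gave 10.9% and 11.7% for exon 2, 43.2% and 43.0% for exon 5, and 49.9% and 48.8% for exon 6, so the order of the libraries for exon 5 turned. On TPM the rule was the 1.5-fold limit alone, with no interval. The 9 Mbp transcripts lower by the rule were the same 9 under all 6 alternatives of scaling, TPM and interval. Genes lower by the rule numbered 354 on TPM with a pseudocount of 1, 826 with no filter and 306 at 5 CPM, and genes higher 657 and 190 under those filters. Transcripts lower numbered 6921 and 1775, and higher 7251 and 1689. Transcription factors lower by the rule were 3 on TPM with either pseudocount, mRNA factors higher 0, and Schwann cell markers lower 1 with upper quartile factors and 0 on TPM. On TPM the neuron median was 0.230 and 0.228 and the astrocyte median -0.0035 and -0.0036. Beyond construction, the cause of these shifts was not tested. Summing Mbp with overlapping genes was not run, since none overlaps its exons, and the T cell list gave no median at 5 CPM. Depth limits Mbp-208, Mbp-213 and Mbp-214.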
